A study of Mus musculus with 4 samples.

Results

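The translation initiation and elongation factors of mouse were described in ribosome-bound RNA of Crh-IRES-Cre neurons, set against the RNA of the tissue they came from. Members were the genes whose symbol starts with Eif1 to Eif6, Eef1 or Eef2, other than pseudogenes and unnamed clones, with at least 10 counts in at least 1 library. The rule held for 62 of the 64 rows with such symbols, among 24100 genes in all. The 2 rows left out were Eif4ebp3, with 0 counts in each IP library and 2 counts in the Input, and Eif4e1b, with 0 counts in every library. Just inside the minimum, the highest count in any library was 45 for Eef2kmt and 71 for Eif4ebp1. The symbol prefixes also take in regulators that carry a factor's name, such as the Eif4ebp inhibitors and the Eif2ak kinases.

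The samples came from the prefrontal cortex of untreated adult male Crh-IRES-Cre mice, which make Cre recombinase wherever the Crh gene (corticotropin-releasing hormone) is active. In translating ribosome affinity purification (TRAP), ribosomes that carry an EGFP tag are captured with antibodies against EGFP together with the mRNA they are reading. The 2 groups were the IP, with 3 libraries of captured RNA, and the Input, with 1 library, and each library pooled 5 males. Both groups share line, sex, tissue and lack of treatment, and how the tag reached the cells was not given in the sources used here. The labels do not say whether IP libraries came from separate animals, nor whether the Input animals were those of an IP, so the spread behind every p-value is that between libraries and may be technical.

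Translation of most mRNAs begins when eIF4F, made of the cap-binding protein eIF4E, the scaffold eIF4G and the helicase eIF4A, prepares the 5′ end, and eIF3 joins it to the small ribosomal subunit. The subunit carries initiator tRNA brought by eIF2, scans to a start codon, is joined by the large subunit, and eEF1 and eEF2 then drive elongation. In neurons these steps are regulated through mTORC1, which phosphorylates the 4E-binding proteins, and through the kinases that phosphorylate eIF2 or eEF2.

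The mRNAs of many translation factors are known to start with a cytosine followed by a run of pyrimidines, the terminal oligopyrimidine (TOP) motif through which mTORC1 controls their translation. Windows of 30 bases around the transcription starts annotated by RefSeq (build GRCm38.p6) were searched for a start base C followed by at least 4 bases that were each C or T, on the strand of the gene. The windows shown hold 10 bases before the start and 20 from it on, and belong to the 3 members with the lowest p and to the 2 members with such a start, whose C and pyrimidine run are in capitals.
Eif4g1, plus strand, chr16:20672717-20672746: gcgcagctccgccctctgcgccggtcacgt
Eif4g3, plus strand, chr4:137993445-137993474: tccgagcggccgtcctgccggactgctgga
Eif3a, minus strand, chr19:60790674-60790703: ctcgggcggcggcgctgccgccgcgaggga
Eif2s3x, minus strand, chrX:94212632-94212661: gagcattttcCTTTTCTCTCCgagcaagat
Eif3f, plus strand, chr7:108934405-108934434: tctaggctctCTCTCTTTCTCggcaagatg
Of the 50 members with a start in the RefSeq table, 2 (4%) had such a start, against 813 of 27025 genes (3.01%). The windows of Eif4g1, Eif4g3 and Eif3a held none at their annotated starts, and of the pair that did, Eif2s3x had higher levels in all 3 IP libraries while Eif3f differed little between IP and Input, as given with their groups. A match describes these letters at an annotated start and is not a measured start site. Only the annotated base was tried as the C, so an annotation misplaced by a base would count as no match. The Eif4g1 window is such a case, as a C with a pyrimidine run of that length begins at the base next after its annotated start. The lack of a match therefore does not show that a gene lacks the motif.

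Library totals were 10031072 to 23548375 counts in the IP libraries and 14474529 counts in the Input, and the members held 0.703% to 0.766% of the counts in the IP libraries and 0.670% in the Input. Levels are given as CPM, the usual count measure relative to library size, here with TMM factors, and fitted log2 folds are IP over Input. Crh itself had 501, 174 and 193 CPM in the IP libraries and 1.32 CPM in the Input (log2 fold 7.77 ± 0.87 SE, adjusted p = 9.66e-05). The 6 interneuron markers Vip, Tac2, Calb2, Htr3a, Prox1 and Adarb2 summed to 3831 to 5863 CPM in the IP libraries and 101 CPM in the Input, and all 6 were called higher. Of the 6 GABAergic markers, whose sums were 3208 to 4184 CPM in the IP libraries and 585 CPM in the Input, 5 were called higher. Crh and both interneuron lists were thus far higher in the IP libraries than in the Input. Among other cell types, the marker sums of oligodendrocytes and microglia were lower in each IP library than in the Input, and the endothelial sum was higher. The excitatory and astrocyte sums had IP libraries on both sides of the Input, although most of their single markers were lower. Every IP library was below the Input for 5 of 6 excitatory markers, and Nrn1 (adjusted p = 0.00225 by edgeR) and Nrgn (adjusted p = 0.0141) were called lower. The 6 excitatory markers summed to 3123 to 5910 CPM in the IP libraries and 4861 CPM in the Input, and was carried by Camk2a, with 2590 to 4976 CPM in the IP libraries and 2902 CPM in the Input. Of the astrocyte markers, 5 of 6 were likewise below the Input in each IP library (median log2 fold of the 6 at -0.80), and none was called by edgeR, DESeq2 or limma-voom or had an unadjusted p under 0.05, with a sum of 1631 to 2801 CPM in the IP libraries and 2612 CPM in the Input that was carried by Slc1a2. The sum of 6 oligodendrocyte markers was 318 to 499 CPM in the IP libraries and 683 CPM in the Input, with 3 below the Input in all 3 and 1 above. Microglial markers summed to 21.2 to 34.7 CPM in the IP libraries and 73.9 CPM in the Input, with 5 of 6 below it in all 3, and C1qa and Tmem119 had 0 counts in at least 1 IP library. Endothelial markers summed to 122 to 445 CPM in the IP libraries and 30.6 CPM in the Input, with all 6 higher in all 3 IP libraries and none called by edgeR (3 at an unadjusted p under 0.05), while DESeq2 called Flt1 and Slc2a1. The part of these cell types in the values of the translation factors was not tested, and in such pooled RNA, fewer cells of a type and less RNA per cell cannot be told apart.

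No translation factor passed the test between IP and Input, in a background where 0.458% of the 14636 genes tested were called by edgeR's quasi-likelihood test at an adjusted p under 0.05 (0.410% higher and 0.0478% lower in IP). All 62 members passed the low-count filter. DESeq2 called 0 of the 62 members, where it called 1.38% of all genes, and limma-voom called 0, where it called 0.348%. At an unadjusted p under 0.05, 3 members (4.84%) were higher in IP, namely Eif4g3, Eif4g1 and Eif3a, and 0 were lower, against 3.20% of all genes higher and 1.23% lower. The median fitted log2 fold was 0.19 over the members and 0.083 over all genes tested. The sign of the members' median turned with the scaling, being -0.030 with upper-quartile factors and -0.087 with library totals, where the median of all genes was -0.13 and -0.19. The members' median exceeded that of all genes by 0.10 under each of these 3 scalings. That excess ranged over the other settings from 0.019 among genes with a mean of at least 5 CPM to 0.32 with limma-voom, with 0.22 for no low-count filter and 0.16 to 0.19 when an IP library was left out.

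**Figure D1:**
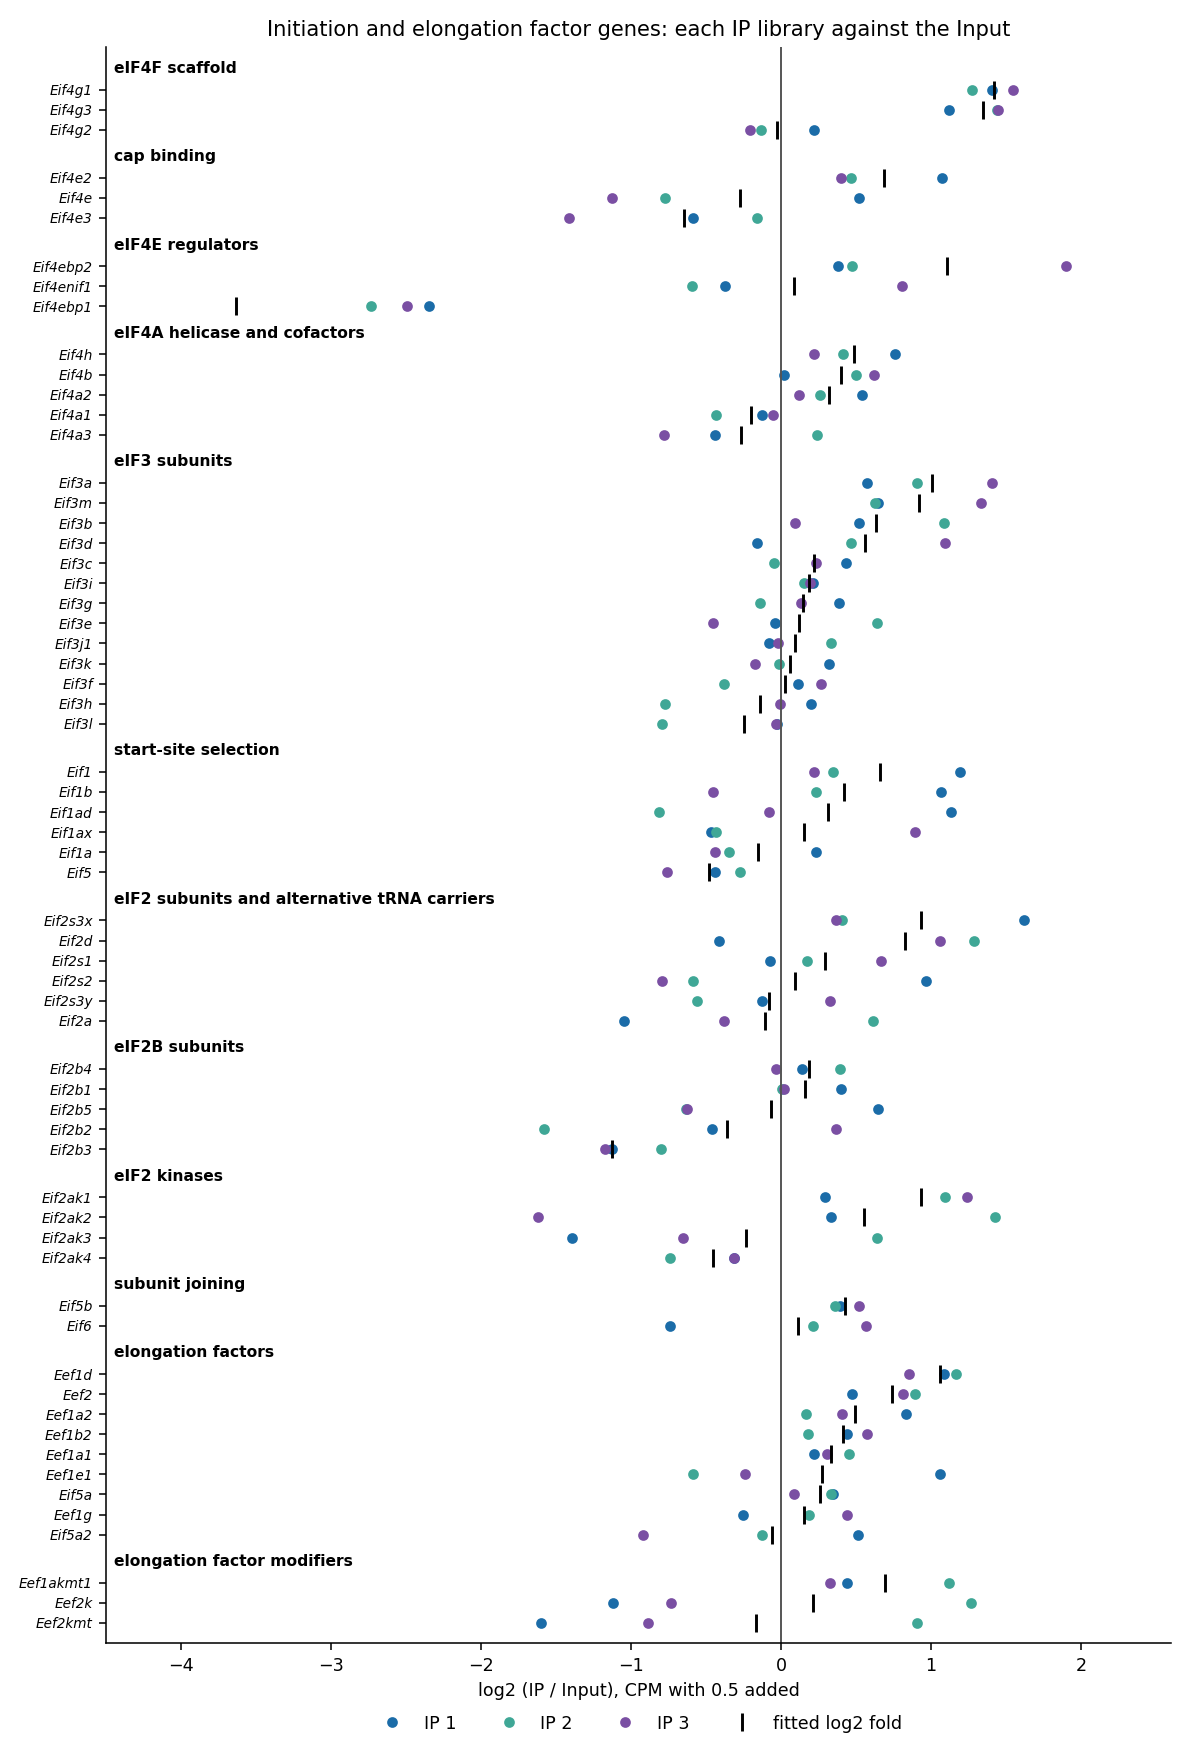
Log2 ratio of each IP library to the Input (0.5 CPM added; horizontal axis) for the 62 translation factors, grouped by role down the page. Points are single IP libraries, coloured by library, and the black bar is the fitted log2 fold, which has no 0.5 CPM added and therefore lies left of the points for Eif4ebp1; Eif4g1 and Eif4g3 stand at the right of the scaffold group, with Eif4g2 near 0.

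Counted by library, 23 members (37.1%) lay above the Input in all 3 IP libraries and 7 (11.3%) lay below it in all 3, against 19.7% and 24.1% of all genes tested. Of genes with a mean of at least 5 CPM, 25.3% lay above and 17.1% below, and 23 and 5 of the 59 such members did. With library totals in place of TMM, 12 members (19.4%) lay above and 13 (21.0%) below, against 12.1% and 34.0% of all genes. The side on which a moderately different member falls thus depended on the scaling. The 12 members above the Input in all 3 IP libraries under library totals were Eef1akmt1, Eef1d, Eef2, Eif2ak1, Eif2s3x, Eif3a, Eif3m, Eif4e2, Eif4ebp2, Eif4g1, Eif4g3 and Eif5b, and each was also above under TMM and upper-quartile factors. The 7 below the Input in all 3 under TMM were Eif2ak4, Eif2b3, Eif3l, Eif4a1, Eif4e3, Eif4ebp1 and Eif5. A fitted log2 fold beyond 1 in either direction occurred in 7 members (11.3%), against 30.5% of all genes and, among genes with a mean of at least 5 CPM, 5 of 59 members against 18.9%.

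Of the eIF4G scaffolds, Eif4g1 and Eif4g3 had the highest fitted folds of all members, while that of Eif4g2 was -0.03. Eif4g1 (chromosome 16, 20672720 to 20692883), the classical scaffold that binds eIF4E, eIF4A, eIF3 and poly(A)-binding protein, had 337, 306 and 371 CPM in the IP libraries and 127 CPM in the Input. All 3 IP values lay above the Input and within 1.21-fold of each other. The fitted log2 fold was 1.42 ± 0.44 (SE; 95% interval 0.50 to 2.34; adjusted p = 0.381 by edgeR's quasi-likelihood test).

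Eif4g3 (chromosome 4, 137991779 to 138207086), a close homologue that also binds eIF4E, had 798, 1000 and 1002 CPM in the IP libraries and 368 CPM in the Input. Every IP value was more than double the Input. The fitted log2 fold was 1.34 ± 0.37 (SE; 95% interval 0.56 to 2.13; adjusted p = 0.237 by edgeR). Without IP 1 the fold was 1.42 with an adjusted p of 0.00119 by edgeR, the single call of any member under the alternatives tried, and 1.47% of all genes were called in that fit. Without IP 2 or IP 3, where 0.727% and 0.623% of all genes were called, no member was. DESeq2 gave an adjusted p of 0.0859 for Eif4g1 and 0.0890 for Eif4g3.

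Eif4g2 (chromosome 7, 111067985 to 111083030), also called DAP5, lacks the eIF4E-binding region and serves cap-independent and alternative initiation. It had 1291, 1014 and 963 CPM in the IP libraries and 1111 CPM in the Input, so that the IP libraries lay on both sides of the Input. Its log2 fold was -0.03 ± 0.33 (SE; 95% interval -0.73 to 0.67; adjusted p = 1.0 by edgeR). That interval overlaps those of Eif4g1 and Eif4g3, which begin at 0.50 and 0.56, and a test between the paralogues' folds was not made.

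Shares within a paralogue family do not depend on how libraries are scaled. Eif4g2 made up 53.2%, 43.7% and 41.2% of the family's counts in the IP libraries and 69.2% in the Input (exact 95% binomial interval 68.6% to 69.7%, which covers counting error only). Eif4g3 made up 32.9%, 43.1% and 42.9% in the IP libraries and 22.9% in the Input. Eif4g1 made up 13.9%, 13.2% and 15.9% in the IP libraries and 7.89% in the Input. All 3 IP libraries therefore lay on the same side of the Input for each paralogue, and IP 1 stood nearer to the Input than IP 2 and IP 3 for Eif4g2 and Eif4g3. With 3 libraries against 1, the smallest two-sided p of an exact permutation test is 0.25, so no share was tested.

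On a scale per kilobase of annotated transcript, where levels of different genes can be compared roughly, Eif4g2 ranked first of the 62 members in the IP (307 ± 49.7 CPM per kilobase, SD, n = 3) and in the Input (313 CPM per kilobase). Eif4g3 ranked 5th in the IP with 176 ± 22.1 CPM per kilobase and 9th in the Input with 69.6 CPM per kilobase. Its transcript length of 5289 bases barely exceeds its coding length of 5286, unlike Eif4g1 (5440 and 4800) and Eif4g2 (3548 and 2718). The level of Eif4g3 per kilobase may thus be too high beside theirs. Eif4g1 ranked 15th in the IP with 62.2 ± 5.94 CPM per kilobase and 29th in the Input with 23.3 CPM per kilobase. Eif4g2 thus remained the most abundant scaffold transcript per length in the IP libraries, at 364, 286 and 271 CPM per kilobase against 151, 189 and 189 for Eif4g3.

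**Figure D2:**
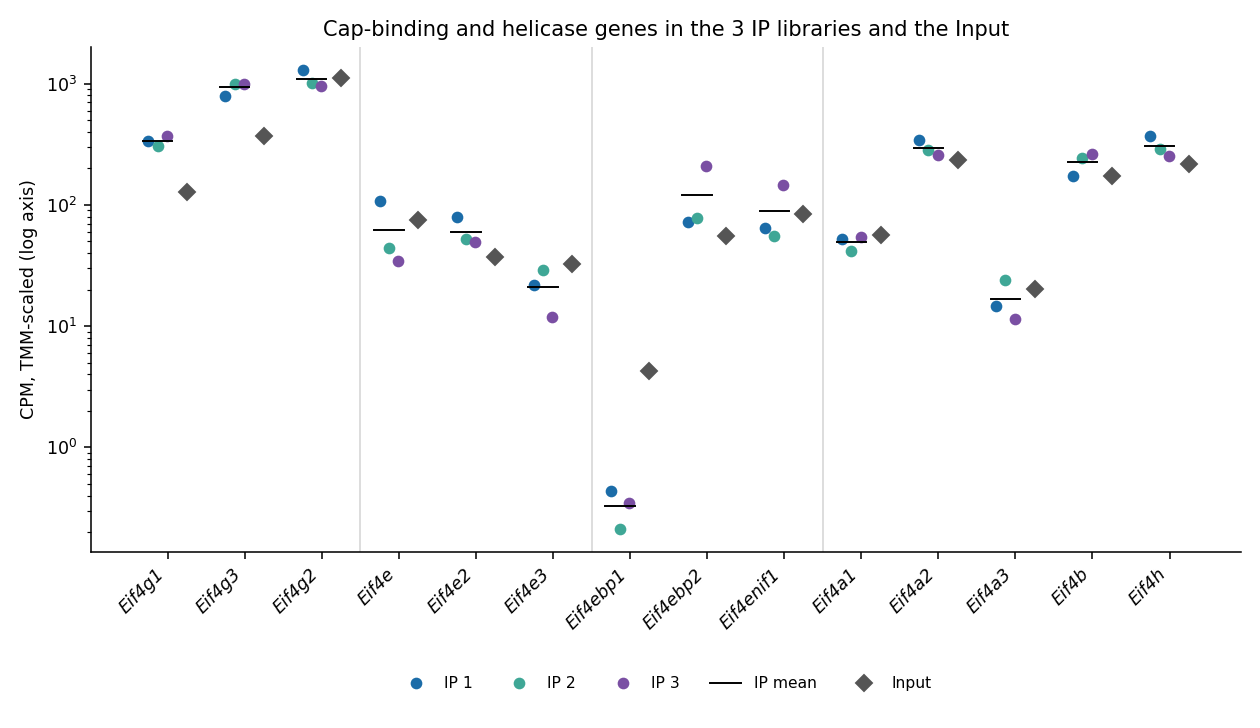
Levels in CPM (log axis) of eIF4F components and their regulators, with the 3 IP libraries as points left of the Input diamond and a line at the IP mean. Eif4g1 and Eif4g3 sit above the Input in all 3 IP libraries, Eif4g2 on both sides of it, and Eif4ebp1 below 0.5 CPM in each IP library against 4.26 CPM in the Input.

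Among the cap-binding proteins, Eif4e2, which binds the cap weakly and is known for translational repression with GIGYF proteins, had 79.3, 52.0 and 49.7 CPM in the IP libraries and 37.5 CPM in the Input (log2 fold 0.69 ± 0.72 SE, or 0.42 without IP 1). Eif4e, the cap-binding subunit of eIF4F, had 108, 43.9 and 34.2 CPM in the IP libraries and 75.4 CPM in the Input (-0.28 ± 0.70). Eif4e3, the other relative, had 21.7, 29.3 and 12 CPM in the IP libraries and 32.9 CPM in the Input (-0.65 ± 0.90). Eif4e2 was above the Input in all 3 IP libraries, Eif4e3 was below it in all 3, and Eif4e was above it in IP 1 alone. The share of Eif4e2 in the counts of the 3 genes was 37.9%, 41.5% and 51.8% in the IP libraries and 25.8% in the Input, while that of Eif4e was 51.7%, 35.1% and 35.7% in the IP libraries and 51.7% in the Input.

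The 4E-binding proteins hold eIF4E away from eIF4G until mTORC1 phosphorylates them. Eif4ebp1 (chromosome 8, 27260327 to 27275656) had 10, 2 and 4 counts in the IP libraries and 71 counts in the Input, or 0.436, 0.214 and 0.345 CPM against 4.26 CPM. Pooled over the 3 IP libraries, its level was 0.0856 of the Input (95% interval 0.0464 to 0.149, counting error only), and the fitted log2 fold of -3.64 ± 2.42 (SE; adjusted p = 1.0 by edgeR) was the lowest of the members. Eif4ebp2, the 4E-binding protein that predominates in brain, had 72.5, 77.4 and 209 CPM in the IP libraries and 55.7 CPM in the Input (log2 fold 1.10 ± 0.67 SE). Without IP 3 that fold was 0.43, with IP 1 and IP 2 less than 1.4-fold above the Input. Eif4ebp1 was 0.597%, 0.275% and 0.164% of the 4E-binding protein counts in the IP libraries and 7.09% in the Input (exact 95% interval 5.58% to 8.85%). Eif4enif1, a nuclear import factor of eIF4E, had 64.8, 55.4 and 147 CPM in the IP libraries and 84.0 CPM in the Input, and IP 3 was its highest library as well.

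Of the helicase group, Eif4a2, Eif4b and Eif4h were above the Input in all 3 IP libraries under TMM, although none of them was so with library totals. Eif4a2, the eIF4A isoform abundant in brain, had 343, 282 and 257 CPM in the IP libraries and 236 CPM in the Input (log2 fold 0.32 ± 0.42 SE). Eif4a1, the isoform typical of growing cells, had 52.0, 41.9 and 54.8 CPM in the IP libraries and 56.9 CPM in the Input (-0.20 ± 0.68). Of its transcript, 68.7% has near-identical copies in annotated transcripts of other genes, so its counts are uncertain. The share of Eif4a2 in the counts of the eIF4A genes was 83.7%, 81.1% and 79.5% in the IP libraries and 75.4% in the Input (exact 95% interval 74.2% to 76.6%). Eif4h, a cofactor of the helicase, had 369, 290 and 253 CPM in the IP libraries and 217 CPM in the Input (0.48 ± 0.42). Eif4b, the other cofactor, had 175, 244 and 265 CPM in the IP libraries and 173 CPM in the Input, where IP 1 equalled the Input within 1.1-fold. Eif4a3, a core protein of the exon junction complex, had 14.7, 23.8 and 11.5 CPM in the IP libraries and 20.1 CPM in the Input.

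**Figure D3:**
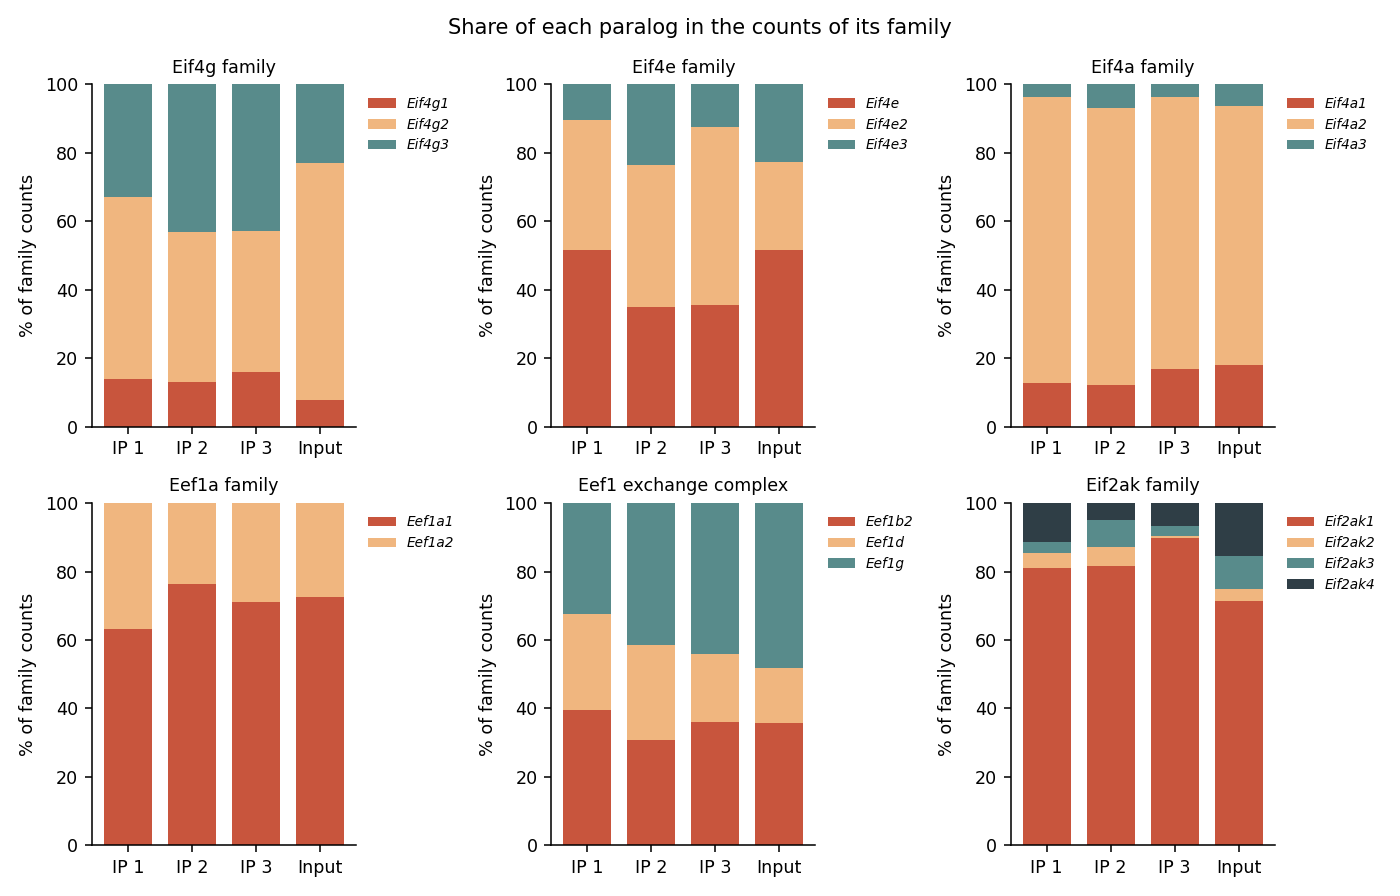
Stacked bars of the share of each paralogue in the counts of its family, in percent, with the 3 IP libraries left of the Input, for 6 families. Eif4g2 lies at 41.2% to 53.2% in the IP libraries against 69.2% in the Input, and Eif4e2 at 37.9% to 51.8% against 25.8%.

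The 13 subunits of eIF3, the complex that bridges eIF4G and the small ribosomal subunit, mostly lay close to the Input. Under TMM their fitted folds were above 0 in 11, against 54.2% of all genes tested. With library totals only those of Eif3a, Eif3b, Eif3d and Eif3m were, where the median of all genes was -0.19. Under TMM the median log2 fold of the subunits was 0.14, against 0.083 over all genes, but 0 passed the test. Under TMM, 4 subunits lay above the Input in all 3 IP libraries and 1, Eif3l, lay below it in all 3. Of all genes 19.7% lay above and 24.1% below, or 25.3% and 17.1% of genes with a mean of at least 5 CPM. With library totals Eif3a and Eif3m lay above and Eif3f, Eif3h, Eif3i and Eif3l below, against 12.1% and 34.0% of all genes. Eif3a (chromosome 19, 60761116 to 60790693), the largest subunit and an organiser of the complex, had 290, 367 and 517 CPM in the IP libraries and 195 CPM in the Input. Its log2 fold was 1.0 ± 0.44 (SE; adjusted p = 0.996 by edgeR), and the IP libraries spread over 1.78-fold.

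The remaining eIF3 subunits had log2 folds between -0.25 for Eif3l and 0.92 for Eif3m. Eif3m had 38.6, 38.1 and 62.4 CPM in the IP libraries and 24.5 CPM in the Input, with 87.7% of its transcript near-identical to copies elsewhere. Eif3i, a WD40 subunit, was the most even of them, with 90.4, 86.6 and 89.2 CPM in the IP libraries and 77.9 CPM in the Input. Eif3c, the partner of Eif3a in the core, had 188, 134 and 163 CPM in the IP libraries and 139 CPM in the Input. Eif3f had 91.0, 64.4 and 101 CPM in the IP libraries and 84.0 CPM in the Input (0.03 ± 0.58). Subunits of the complex other than Eif3a and Eif3m thus spanned folds of -0.25 to 0.63, each smaller than its SE.

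Start-site selection depends on eIF1, eIF1A and eIF5. Eif5, the GTPase-activating protein of eIF2, had 208, 234 and 166 CPM in the IP libraries and 283 CPM in the Input (log2 fold -0.48 ± 0.42 SE), and all 3 IP libraries lay below the Input. Eif1, which enforces stringent start-codon choice, had 224, 124 and 114 CPM in the IP libraries and 97.7 CPM in the Input (0.66 ± 0.54), and its fold was 0.26 without IP 1. Its relative Eif1b had 134, 75 and 46.4 CPM in the IP libraries and 63.6 CPM in the Input (0.42 ± 0.66, and -0.09 without IP 1), and both were highest in IP 1. Eif1a, Eif1ax and Eif1ad, of the eIF1A kind, had folds of -0.16, 0.15 and 0.31, each with the IP libraries on both sides of the Input.

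The eIF2 trimer brings initiator tRNA, and eIF2B recycles it. Its GTP-binding gamma subunit is encoded by Eif2s3x on the X and Eif2s3y on the Y chromosome in mouse. Eif2s3x had 155, 66.5 and 64.8 CPM in the IP libraries and 50.2 CPM in the Input (log2 fold 0.93 ± 0.67 SE, or 0.37 without IP 1), and 37% of its transcript has near-identical copies elsewhere. Eif2s3y had 10.9, 7.91 and 15.1 CPM in the IP libraries and 11.9 CPM in the Input. IP 1 was more than 2-fold above the other IP libraries for Eif2s3x, and the share of Eif2s3x in the pair was 93.5%, 89.4% and 81.1% in the IP libraries against 80.8% in the Input, so IP 3 did not differ from the Input beyond counting error.

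Eif2s1, the alpha subunit whose phosphorylation lowers initiation, had 37.0, 43.9 and 62.1 CPM in the IP libraries and 38.9 CPM in the Input. Eif2s2, the beta subunit, had 89.1, 30.0 and 26.0 CPM in the IP libraries and 45.5 CPM in the Input. For both genes the IP libraries lay on both sides of the Input, and IP 1 was highest for Eif2s2 and lowest for Eif2s1. Eif2a and Eif2d, which can deliver tRNA to the ribosome without eIF2, had log2 folds of -0.11 ± 0.74 and 0.83 ± 0.97 (SE).

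The 5 eIF2B subunits had a median log2 fold of -0.07, and folds from -1.13 for Eif2b3 to 0.19 for Eif2b4. Eif2b3, a subunit of the catalytic arm, had 3.05, 3.96 and 2.93 CPM in the IP libraries and 7.26 CPM in the Input, from 70, 37 and 34 counts against 121. Its IP level was 0.443 of the Input over the pooled counts, and the fitted fold of -1.13 ± 1.66 (SE) was smaller than its error.

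The 4 eIF2 kinases respond to different stresses. Eif2ak1, known as the haem-regulated kinase that also relays mitochondrial stress, had 109, 190 and 211 CPM in the IP libraries and 89.2 CPM in the Input (log2 fold 0.93 ± 0.53 SE; adjusted p = 1.0 by edgeR). Eif2ak4, the amino acid sensor GCN2, had 15.5, 11.4 and 15.5 CPM in the IP libraries and 19.4 CPM in the Input (-0.46 ± 1.04). Eif2ak3, the endoplasmic reticulum kinase PERK, had 4.23, 18.8 and 7.42 CPM in the IP libraries and 11.9 CPM in the Input. Eif2ak1 was thus the kinase above the Input in all 3 IP libraries and Eif2ak4 the one below it in all 3. Eif2ak2, the double-stranded RNA sensor PKR, had 5.80, 12.9 and 1.12 CPM in the IP libraries and 4.5 CPM in the Input, an 11.5-fold spread within the IP. Eif2ak1 made up 81.1%, 81.5% and 89.8% of the kinases' counts in the IP libraries and 71.3% in the Input (exact 95% interval 69.3% to 73.3%).

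For subunit joining, Eif5b, the GTPase that joins the subunits, had 173, 168 and 188 CPM in the IP libraries and 131 CPM in the Input (log2 fold 0.43 ± 0.47 SE). Eif6, which keeps free large subunits apart from small ones, had 11.3, 22.3 and 28.7 CPM in the IP libraries and 19.2 CPM in the Input. The IP libraries agreed within 1.12-fold for Eif5b and differed by 2.53-fold for Eif6.

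The 9 genes grouped with elongation include Eef1e1, named for eEF1 but a scaffold protein of the tRNA synthetase complex. Fitted folds were above 0 in 8 of the 9 under TMM, against 54.2% of all genes tested. Those of Eef1g and Eif5a also fell below 0 with library totals. Under TMM 6 lay above the Input in all 3 IP libraries, against 19.7% of all genes and 25.3% of genes with a mean of at least 5 CPM. With library totals Eef1d and Eef2 still did, against 12.1% of all genes. None passed the test, and the median log2 fold was 0.33. Eef2 (chromosome 10, 81176631 to 81182509), the translocase, had 431, 577 and 547 CPM in the IP libraries and 310 CPM in the Input. Its log2 fold was 0.74 ± 0.39 (SE; 95% interval -0.08 to 1.56; adjusted p = 1.0 by edgeR).

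Eef1a1 (chromosome 9, 78478453 to 78481724) and Eef1a2 (chromosome 2, 181141758 to 181157015) encode the protein that delivers aminoacyl-tRNA, and neurons are known to switch towards Eef1a2 as they mature. Eef1a1 had 393, 463 and 418 CPM in the IP libraries and 338 CPM in the Input (log2 fold 0.33 ± 0.38 SE), and 79.4% of its transcript has near-identical copies elsewhere. Eef1a2 had 228, 143 and 169 CPM in the IP libraries and 128 CPM in the Input (0.49 ± 0.49), and the fold was 0.27 without IP 1. The share of Eef1a2 in the pair was 36.8%, 23.7% and 28.8% in the IP libraries and 27.5% in the Input, so the IP libraries lay on both sides of the Input. The mean difference of 2.25 percentage points rested on IP 1, and was -1.25 points without it.

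The exchange complex reloads eEF1A with GTP. Its catalytic subunit Eef1d (chromosome 15, 75894796 to 75909784) had 46.0, 48.9 and 39.2 CPM in the IP libraries and 21.5 CPM in the Input (log2 fold 1.06 ± 0.82 SE). Eef1b2, the other catalytic subunit, had 64.6, 54.0 and 71.0 CPM in the IP libraries and 47.6 CPM in the Input (0.41 ± 0.67). Eef1g, the structural subunit, had 53.4, 72.6 and 86.7 CPM in the IP libraries and 63.9 CPM in the Input, with 72% of its transcript near-identical elsewhere. Eef1d took 28.1%, 27.8% and 19.9% of the counts of these 3 genes in the IP libraries and 16.2% in the Input. The exact 95% interval of the Input was 14.6% to 17.8%, and such intervals cover counting error only. Those of IP 1 (26.6% to 29.5%) and IP 3 (18.3% to 21.6%) also lay apart, so IP libraries differed among themselves beyond counting error. Eef1d did not pass the test between IP and Input.

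Eif5a carries the modified lysine hypusine and helps ribosomes past stalling sequences. It had 126, 125 and 105 CPM in the IP libraries and 99.2 CPM in the Input (log2 fold 0.26 ± 0.51 SE). Its paralogue Eif5a2 had 172, 111 and 63.5 CPM in the IP libraries and 121 CPM in the Input, and the 3 IP libraries spanned 2.72-fold.

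Of the 3 enzymes that modify elongation factors, Eef2k and Eef2kmt varied 5.41-fold and 11-fold between IP libraries. Eef2k, the calcium-dependent kinase that inhibits eEF2, had 12, 64.8 and 15.8 CPM in the IP libraries and 26.6 CPM in the Input, so IP 2 was above the Input and the others below. Eef2kmt, a methyltransferase of eEF2, had 10, 45 and 12 counts in the IP libraries and 39 counts in the Input. Its level was 0.436, 4.81 and 1.03 CPM in the IP libraries against 2.34 CPM in the Input, and IP 2 was again the highest. Eef1akmt1, a lysine methyltransferase of eEF1A, had 18, 29.1 and 16.6 CPM in the IP libraries and 13.1 CPM in the Input (0.69 ± 1.04 SE).

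Several of these levels are uncertain because reads may be shared. Near-identical copies elsewhere cover 56% of the transcript of Eif3j1, 42.1% of that of Eif1 and 42.9% of that of Eif2s2. Exons overlap a gene on the other strand over 43.3% of their bases in Eif3d, 23% in Eef2kmt and 16.8% in Eif5b. In Eif1ad, Eif1b and Eif2ak1 it was 15.3%, 12.7% and 11.6%. Reads of such pairs cannot be told apart if strand was not used in counting. Eif4e3 shares 14.8% of its exon bases with a gene on the same strand, where strand would not separate the reads.

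The IP libraries differed from one another in many members. The highest IP level exceeded the lowest by more than 2-fold in 25 members and by more than 3-fold in 11. The median range with 0.5 CPM added was 1.69-fold over the members and 2.42-fold over all genes tested. These ranges are not matched for level, as the median level was 51.6 CPM over the members and 17.4 CPM over all genes. Members were above the Input in IP 1 alone in 10 cases, among them Eif4e, Eif4g2, Eif5a2, Eif2s2 and Eef1e1. They were above it in IP 2 alone in 7, among them Eef2k, Eif2ak3, Eif2a, Eif3e and Eif4a3, and in IP 3 alone in 4, which were Eif1ax, Eif4enif1, Eif2s3y and Eif2b2. The shares of all genes with such ranges or sides were not counted, so these counts do not set the members apart. The sums of excitatory markers (3123 CPM in IP 1, 5910 in IP 2 and 4738 in IP 3) and of endothelial markers (122 CPM in IP 1, 445 in IP 2 and 168 in IP 3) differed between the same libraries, and their part in these values was not tested.

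The 3 members with the lowest p had long coding sequences, of 4800 bases in Eif4g1, 5286 in Eif4g3 and 4032 in Eif3a, against 2718 in Eif4g2. Across the 62 members, which share the 4 libraries, Pearson's r between log2 fold and log2 coding length was 0.27, against 0.082 over 13756 genes with a coding length. By rank the 2 were closer, with Spearman's rho at 0.16 over the members and 0.10 over those genes. By library Pearson's r of the members was 0.36 in IP 2 and 0.28 in IP 3 but -0.0034 in IP 1. The 688 genes of the longest coding sequences, with a median of 6209 bases, had a median log2 fold of 0.59 and an upper quartile of 1.13, and the folds of Eif4g1 and Eif4g3 lay above that quartile. With a trend of fold on coding length removed, an adjustment chosen after seeing the data, the log2 fold was 1.0 for Eif4g1 (adjusted p = 0.928 by edgeR) and 0.86 for Eif4g3 (adjusted p = 0.669). The part of coding length in these folds was not tested further.

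**Figure D4:**
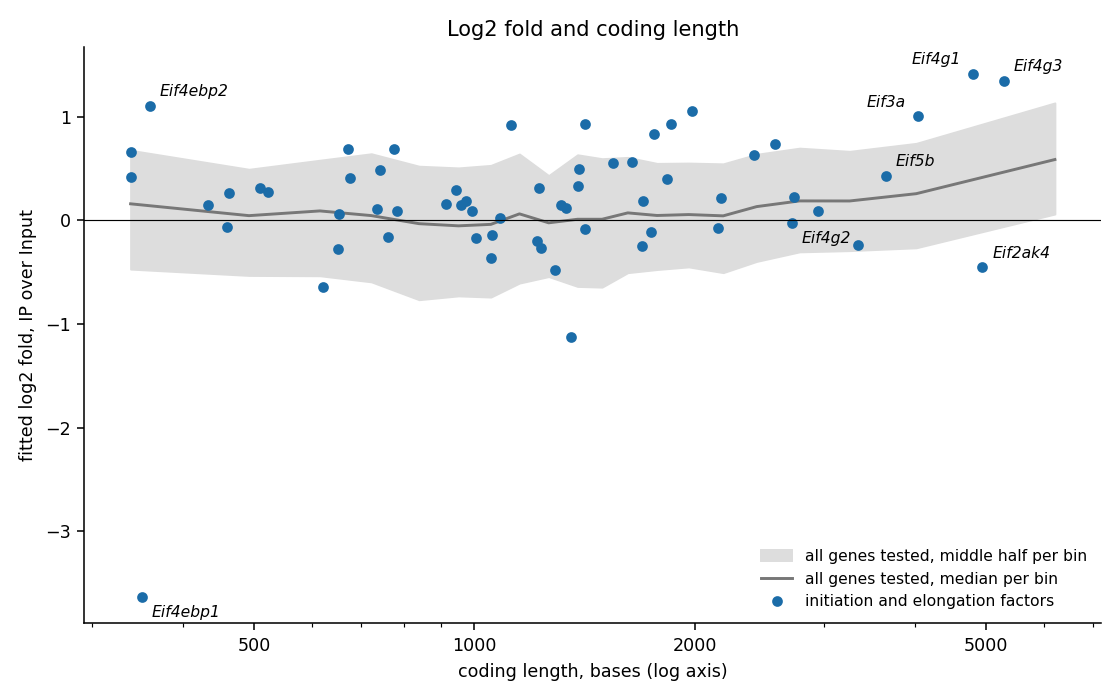
Fitted log2 fold of IP over Input (vertical axis) against coding length in bases (log axis) for the 62 translation factors as points, with the median of all genes per length bin as a line and their interquartile range as a band. Eif4g1 and Eif4g3 lie at the long end with folds of 1.42 and 1.34, above the upper quartile of 1.13 in the longest bin, and Eif4g2 lies near 0.

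Of 7 lists of related genes, none had a member called in either direction by edgeR, DESeq2 or limma-voom, and 1 gene, Paip2, had an unadjusted p under 0.05. The 20 cytosolic tRNA synthetases had the highest median log2 fold, 0.53, with 12 above the Input in all 3 IP libraries and 1 below it in all 3, against 19.7% and 24.1% of all genes. Of genes with a mean of at least 5 CPM, 25.3% lay above and 17.1% below. With library totals 7 of the 20 lay above and 2 below, against 12.1% and 34.0% of all genes. Eprs, the glutamyl-prolyl synthetase, had 126, 195 and 110 CPM in the IP libraries and 66.3 CPM in the Input (1.12 ± 0.55 SE). Among 12 genes of mTORC1 and S6 kinase, the median was 0.16. In all 3 IP libraries 1 lay above and 3 below the Input, against 19.7% and 24.1% of all genes. Rptor, the substrate-binding subunit of mTORC1, had 82.1, 93.9 and 97.3 CPM in the IP libraries and 54.3 CPM in the Input (0.75 ± 0.61).

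The 8 genes of the integrated stress response that were tested, which act downstream of phosphorylated eIF2, had a median of 0.14. In all 3 IP libraries 1 lay above and 1 below the Input, against 19.7% and 24.1% of all genes. Atf4, the transcription factor translated when eIF2 is phosphorylated, had 261, 81.3 and 65.6 CPM in the IP libraries and 71.1 CPM in the Input. IP 1 stood apart for Atf4, and IP 3 was below the Input. The 6 poly(A)-binding proteins and partners had a median of 0.13. Paip2, which keeps poly(A)-binding protein off the mRNA and off eIF4G, had 489, 248 and 200 CPM in the IP libraries and 135 CPM in the Input (1.21 ± 0.52 SE; adjusted p = 0.953 by edgeR).

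The 8 termination, recycling and rescue factors had a median log2 fold of 0.21. Under TMM 3 lay above and 2 below the Input in all 3 IP libraries, against 19.7% and 24.1% of all genes. Among genes with a mean of at least 5 CPM the shares were 25.3% and 17.1%. With library totals 1 lay above and 2 below, against 12.1% and 34.0% of all genes. Gspt1, the termination GTPase eRF3a, had 274, 158 and 233 CPM in the IP libraries and 140 CPM in the Input (0.66 ± 0.47 SE). The 6 genes of diphthamide synthesis, which build the modified histidine of eEF2, had a median of 0.14, and Fmr1 with 4 of its partners, Fxr1, Fxr2, Cyfip1 and Cyfip2, had one of 0.32. The median over all genes tested was 0.083, and the medians of these lists were not tested. No single gene of these lists passed the test, with errors of 0.47 to 0.61 for Gspt1, Eprs and Rptor.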

How the data were processed

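RNA of 3 IP libraries and 1 Input library from prefrontal cortex was analysed. The values deposited by the authors are unnormalized read counts, listed by Entrez identifier and symbol. STAR 2.0.0e, HTSeq and mm10 are named in the submitters' processing notes, while the count tables are marked subread, another counter, so the counter is unsettled. Annotation, strand and treatment of multiply mapped reads are not given in the sources used here, so reads of overlapping or near-identical genes may be split or lost. The 9 genes without a symbol held at most 0.0221% of counts.

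Counts were tested in R 4.3.3 with edgeR 4.0.16 (filterByExpr with a minimum count of 10, TMM factors, quasi-likelihood F test, two-sided, Benjamini-Hochberg over 14636 genes, threshold 0.05). Since the Input is 1 library, dispersion was estimated from the IP (2 residual degrees of freedom, prior 17.0, biological coefficient of variation 0.787), and the Input is assumed to vary alike. 1 count was worth 0.0436 to 0.107 CPM in the IP libraries and 0.0600 CPM in the Input, and no 2 libraries were copies. Alternatives were limma 3.58.1 (voom), DESeq2 1.42.0, other scalings, filters and leaving out each IP library. Gene positions and starts are from RefSeq on GRCm38.p6, the assembly of mm10; lengths and overlaps are from GENCODE. Near-identical copies were stretches of at least 100 bases at 98% identity or more in annotated transcripts of other genes. Genes to name were those past the threshold, the 5 highest and 5 lowest folds, the 10 highest CPM, and paralogue families and kinases, with the other subunits and related genes given by list. Members and lists were chosen with earlier results of these data known.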

Additional observations from a re-analysis of the deposited data

How the results depend on the processing

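Among all genes, 60 were called higher and 7 lower in IP. The number higher was 94 with no filter on low counts, 169 with DESeq2, 37 with limma-voom and 35 at an adjusted p under 0.01. The number lower was 15 with upper-quartile factors, 15 with library totals, 14 with no filter, 13 with DESeq2, 14 with limma-voom, 12 with the length trend removed and 4 at an adjusted p under 0.01. Leaving out each IP library gave 82 to 185 higher and 8 to 25 lower, the largest counts both without IP 1. Members called higher numbered 0, and 0 to 1 when an IP library was left out, the one being Eif4g3 without IP 1. Members called lower numbered 0 under each of these settings.

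The members' median log2 fold of 0.19 was -0.030 with upper-quartile factors, -0.087 with library totals, 0.10 with a mean of at least 5 CPM (59 members), and 0.18 to 0.24 without each IP library. The cause was not tested, except that a scaling shifts all genes alike. The share of Eif4ebp1 among 4E-binding protein counts was lower in IP by a difference of -6.74 points, or -4.89 points per kilobase. Over 33 named members and 12 alternatives, giving 394 folds, 1 passed the threshold and 18 differed in sign, in 10 members, with 5 of the 18 from scaling.

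No paired analysis was possible because the Input has 1 library, so the groups share fewer than 2 replicate numbers. Depth limits Eif4ebp1, Eef2kmt and Eif2b3 most, with 2 to 70 counts in the IP libraries. With 1 Input library, errors of that library cannot be told apart from a difference between IP and Input.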
